A study of Mus musculus with 3 samples.

Results

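The genes Tle1, Tle2, Tle3, Tle4 and Tle6 encode mouse members of the Groucho family of transcriptional corepressors, and the sites of 2 hindlimb transcription factors around them were collected. A site was counted for a gene when its summit lay inside the gene or between it and the next protein-coding gene on either side, at most 1 Mb away, and this stretch is called the domain of the gene. The 5 genes were a choice from 21887 protein-coding genes on the primary chromosomes, and the choice was made from these same site lists, so their counts are given as a description with no test. Binding was mapped by chromatin immunoprecipitation with sequencing (ChIP-seq) in hindlimb buds taken from mouse embryos of the CD1 strain, wild type, at stage e11.5. One sample was precipitated with a homemade antibody to Tbx4 and another with an Abcam antibody to Hoxc10. The remaining sample, made with a Hoxc10 antibody of Santa Cruz, was not analysed here. Each factor is represented by 1 list of peak summits from 1 sample, so there are no replicates and no error between embryos can be given. Tbx4 is a T-box factor of the hindlimb, and Hoxc10, one of the posterior Hox proteins, binds DNA through a homeodomain.

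Groucho proteins do not bind DNA themselves. They assemble into oligomers and are recruited by DNA-binding repressors, among them the Hes and Hey factors of Notch signalling, the Runx factors and the Tcf and Lef factors of Wnt signalling. Many of these repressors dock with a short peptide on the WD-repeat domain of the corepressor. T-box factors such as Tbx15, Tbx18 and Tbx20 carry a peptide of this kind. Tle1 to Tle4 are the full-length proteins, Tle6 is a divergent relative best known from the mouse oocyte and early embryo, and Tle5, also called Aes, lacks the WD repeats.

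The Tbx4 list held 4780 sites with scores from 1.34 to 317.1 (median 3.67), and the Hoxc10 list held 1614 sites with scores from 1.4 to 237.9 (median 7.72). The score is the peak caller's own value on a −log10 scale and is compared only within a list. Many sites share a score, and 779 Tbx4 sites scored 2.94. The name of the Hoxc10 list may mean that only sites within 200 bp of Santa Cruz peaks were kept, so that a missing Hoxc10 site does not show an unbound place. The read depth is unknown, because the lists hold no counts. They hold no expression values either, so the tissue could not be checked against its markers.

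The sites at the Groucho genes gathered at Tle3. Over the 5 domains there were 20 Tbx4 sites and 4 Hoxc10 sites, with 3 co-bound pairs, meaning a Tbx4 and a Hoxc10 summit within 200 bp of each other. Tle3 held 17 Tbx4 and 2 Hoxc10 sites, Tle4 held 2 and 2, Tle1 held 1 and 0, and Tle2 and Tle6 held 0 of both. Thus 85% of the Tbx4 sites lay around a single gene. At least 1 Tbx4 site was found at 3 of the 5 genes, where 17.2% of all protein-coding genes had one, and at least 1 Hoxc10 site at 2 of the 5, where 6.83% of all genes had one. A site of each factor was found at 5% of all genes and a co-bound pair at 2.65%, and Tle3 and Tle4 had both. The medians over the 5 genes were 1 Tbx4 and 0 Hoxc10 sites, against 0 and 0 over all genes. These shares chose the genes and are read no further. The domains of Tle1, Tle3 and Tle4 were also long, at 1093, 1033 and 1678 kb. Among the 2005 genes with domains of 500 kb and over, 53.1% had a Tbx4 site and 34.6% a Hoxc10 site. The share of these long-domain genes with a co-bound pair is not given here.

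One co-bound pair fell inside a promoter whose sequence was at hand. Gm34157 is a long noncoding RNA gene on chromosome 9, from 61368602 to 61370490 (mm10), that runs leftward, away from Tle3. Its start lies 1836 bp before the first base of Tle3, which runs rightward from 61372326 to 61418497. The promoter window of Gm34157, 250 bases before to 50 after its start, contained a Tbx4 summit at 61370456 and a Hoxc10 summit at 61370509, 53 bp apart. The Tbx4 summit was 34 bp inside Gm34157 and the Hoxc10 summit 19 bp before its start. Of 32851 such windows of 27025 genes, 289 (0.880%) held a Tbx4 summit, 42 (0.128%) a Hoxc10 summit and 4 both. The window is printed below with the promoter windows of Tle3, Tle4 and Tle6, which share a sequence feature with it. All are RefSeq sequences of build GRCm38.p6, the same build as mm10, written 5′ to 3′ in the direction of the gene, and capitals mark the motifs CCCACGTGGG and TAATTA.
Gm34157, chr9:61370441-61370740, minus strand: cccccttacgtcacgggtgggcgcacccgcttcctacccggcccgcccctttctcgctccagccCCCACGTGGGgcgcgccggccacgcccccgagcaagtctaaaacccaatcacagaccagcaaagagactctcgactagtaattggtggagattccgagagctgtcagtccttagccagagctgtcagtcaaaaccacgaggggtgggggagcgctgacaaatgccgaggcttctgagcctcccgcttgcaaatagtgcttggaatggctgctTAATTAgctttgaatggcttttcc
Tle3, chr9:61372116-61372415, plus strand: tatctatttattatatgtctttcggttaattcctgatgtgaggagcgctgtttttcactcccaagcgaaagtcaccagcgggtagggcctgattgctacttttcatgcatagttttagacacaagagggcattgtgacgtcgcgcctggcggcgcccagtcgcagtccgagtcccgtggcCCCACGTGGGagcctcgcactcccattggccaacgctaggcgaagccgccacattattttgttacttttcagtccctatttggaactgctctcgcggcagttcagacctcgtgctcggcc
Tle4, chr19:14598134-14598433, minus strand: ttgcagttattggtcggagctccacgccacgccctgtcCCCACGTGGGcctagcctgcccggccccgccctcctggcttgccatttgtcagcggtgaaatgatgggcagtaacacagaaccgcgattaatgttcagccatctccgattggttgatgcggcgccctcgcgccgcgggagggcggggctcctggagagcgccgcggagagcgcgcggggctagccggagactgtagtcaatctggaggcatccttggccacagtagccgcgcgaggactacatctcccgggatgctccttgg
Tle6, chr10:81600851-81601150, minus strand: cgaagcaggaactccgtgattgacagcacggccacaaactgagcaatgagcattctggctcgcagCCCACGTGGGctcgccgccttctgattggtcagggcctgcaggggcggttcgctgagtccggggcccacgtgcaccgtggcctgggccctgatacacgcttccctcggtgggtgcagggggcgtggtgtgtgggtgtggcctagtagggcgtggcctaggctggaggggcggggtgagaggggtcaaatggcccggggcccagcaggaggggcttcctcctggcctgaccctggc

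Counted from the left end of the Gm34157 window, the Tbx4 summit was base 285 and the Hoxc10 summit base 232. The window held neither AGGTGT, the core of the T-box element, nor TTTATNG, a posterior Hox motif, on either strand, and the same was true of all 7 windows of the 5 Tle genes. Over all 32851 windows, 13.7% held AGGTGT and 10.9% held TTTATNG. The homeodomain core TAATTA, which reads the same on both strands, was searched for after the window had been read. It stood at bases 277 to 282 of the Gm34157 window, next to the Tbx4 summit, and 5.29% of all windows held it.

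The palindrome CCCACGTGGG was the longest run of bases, on either strand, that windows of at least 3 of the 5 Tle genes shared, and the search for it was made after the sequences had been read. It contains CACGTG, the E-box core bound by many basic helix-loop-helix proteins. It began at base 65 of the Gm34157 window, base 181 of the Tle3 window, base 39 of the Tle4 window and base 66 of the Tle6 window shown above. The windows of Tle1 and Tle2 and a second, inner window each of Tle4 and Tle6 did not hold it. So 3 of the 5 Tle genes had the palindrome in a promoter window, against 38 of all 27025 genes with a window, or 0.141%. The shorter CACGTG was found in 7.15% of all windows. Because the run was picked for being shared, its count among these genes is no independent measure. No summit of either factor lay in a promoter window of any of the 5 Tle genes, and of the windows shown only that of Gm34157 held summits.

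Tle3 stands first among these genes by its sites. Its domain reached from 60880432 to 61913282 of chromosome 9, between Uaca and Rplp1, the gene of a protein of the ribosomal stalk. It was 1033 kb long. Of its 17 Tbx4 sites 12 lay upstream of the gene, 1 inside it and 4 downstream. They were spread over 788.2 kb from the first to the last, with a median spacing of 45.5 kb and a widest gap of 135619 bp, so they did not form a single compact cluster. Their scores reached from 1.63 to 35.95 with a median of 4.46, and 12 of the 17 were at or above the median of the whole list. Because many sites share that score of 3.67, 61.3% of the whole list was at or above it.

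The strongest Tbx4 site at Tle3 was a distant one. At 61714567, 296070 bp beyond the 3′ end of Tle3, the Tbx4 summit scored 35.95, and 1.67% of the Tbx4 list scored as high or higher. A Hoxc10 summit with a score of 7.55 lay 87 bp from it at 61714654, and 53.7% of the Hoxc10 list was at or above that score. The nearest protein-coding gene to this pair was Rplp1, 198.7 kb away from the Tbx4 summit. The Tbx4 site next in score was the single one inside Tle3, at 61385212 and 12886 bp from its 5′ end, with a score of 27.52, which 3.16% of the list reached. It had no Hoxc10 partner. A further high site at 61311831, 60.5 kb upstream of Tle3, scored 19.64 (5.46% of the list) and was followed 1367 bp on by a site of 7.14 inside the noncoding gene Gm34264. These 3 sites were the only ones at Tle3 in the upper 10% of the Tbx4 list.

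**Figure D1:**
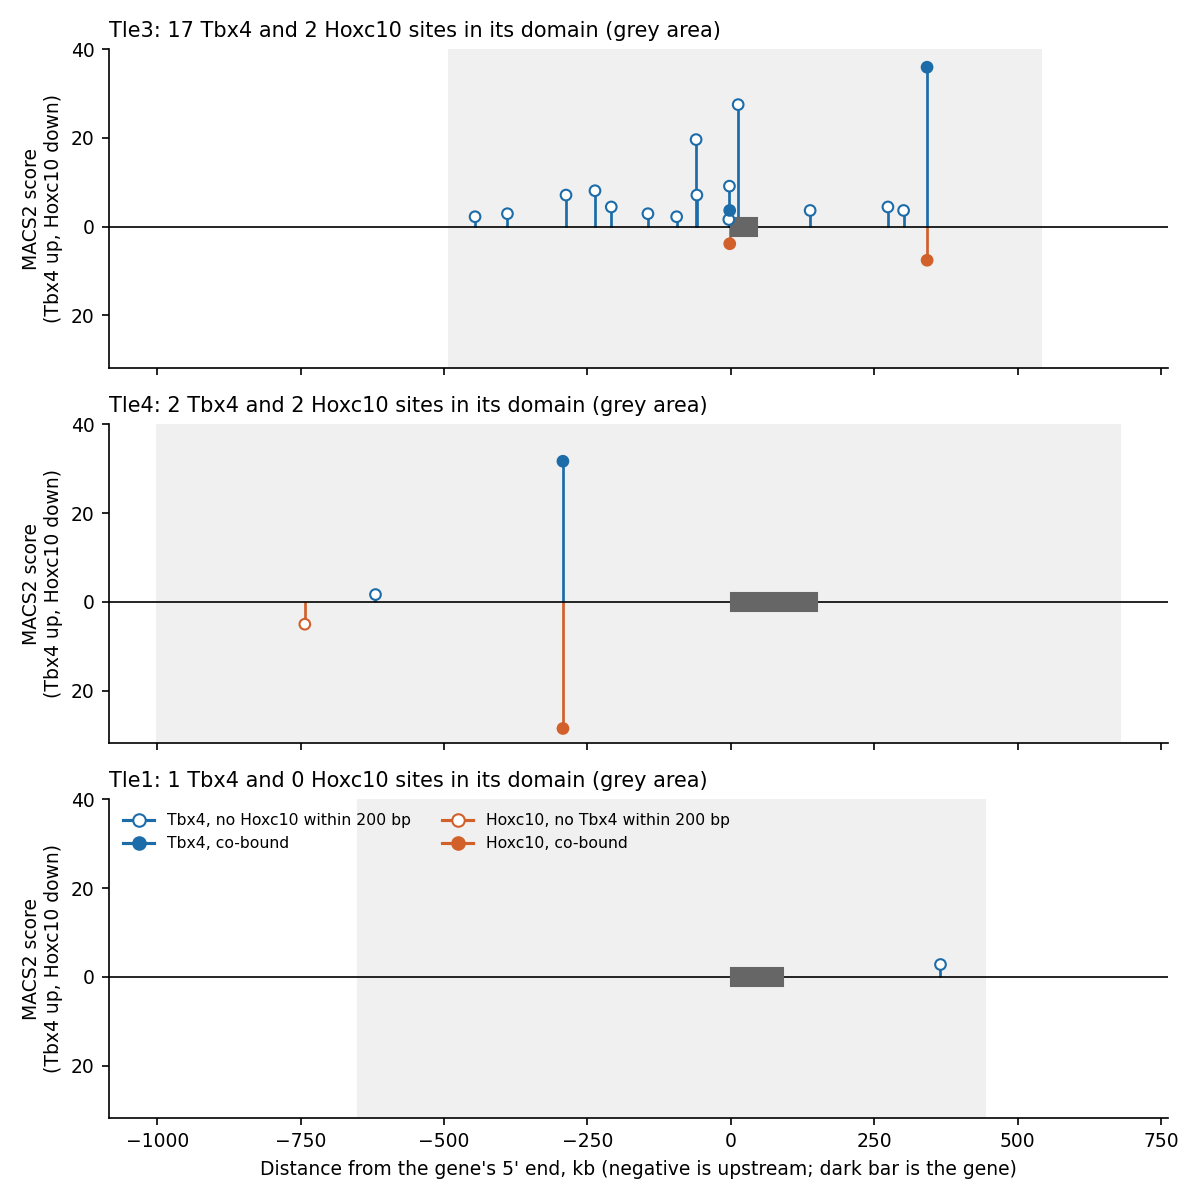
Sites in the domains of Tle3, Tle4 and Tle1, by distance in kb from the 5′ end of each gene (negative is upstream). Stems up are Tbx4 scores and stems down Hoxc10 scores, filled points are co-bound within 200 bp, the dark bar is the gene and the grey area its domain; 17 Tbx4 sites spread over both sides of Tle3, while Tle4 has 1 tall co-bound pair far upstream and Tle1 a single low site.

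A tight group of sites stood just before the 5′ end of Tle3. The Tbx4 summits at 61368893, 61369983 and 61370456 were 3433, 2343 and 1870 bp upstream of the gene and scored 1.63, 9.15 and 3.67. All lay within 1563 bp and inside Gm34157. The middle one was the highest of the group, with 18.4% of the list at or above its score, whereas 99.9% of the list was at or above the 1.63 of the outermost. The Hoxc10 summit that paired with the innermost scored 3.83, and 89.5% of the Hoxc10 list was at or above it. The Tbx4 summit of the promoter pair thus had the median score of its list, and the Hoxc10 summit a score near the low end of its own.

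**Figure D2:**
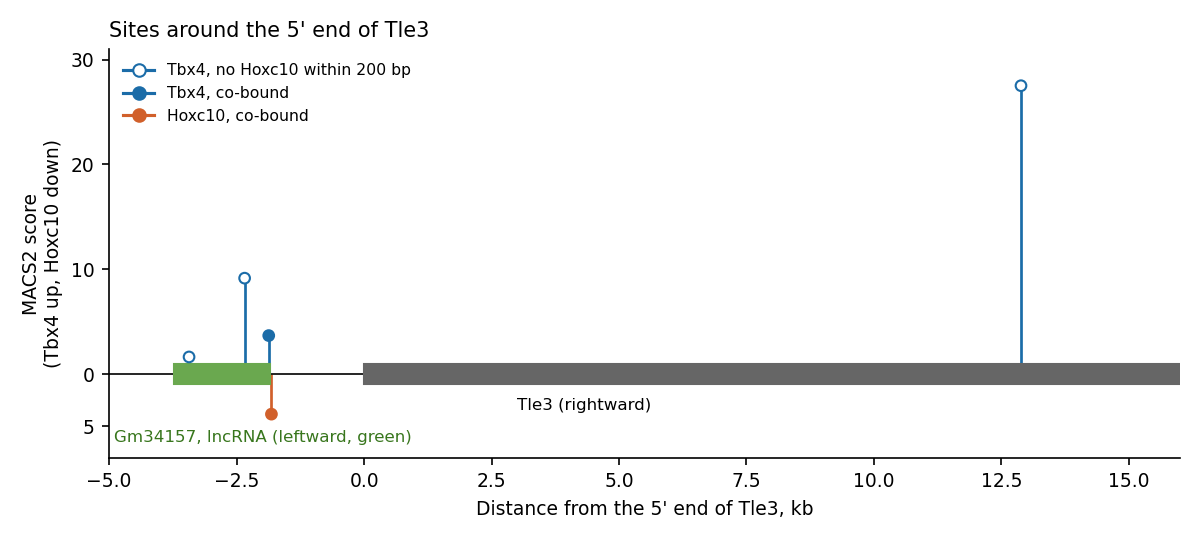
Sites from 5 kb upstream to 16 kb downstream of the 5′ end of Tle3, with the score upward for Tbx4 and downward for Hoxc10. The 3 Tbx4 summits over Gm34157 score between 1.63 and 9.15, below the 27.52 of the site inside Tle3, and the innermost is paired with the Hoxc10 summit.

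The other 11 Tbx4 sites at Tle3 had scores between 2.26 and 8.12. Upstream they lay up to 445.9 kb from the gene, and the highest of them scored 8.12 at 61135527. Downstream, sites of 3.67, 4.46 and 3.67 lay 92.2, 227.8 and 255.2 kb beyond the gene. Noncoding genes of the annotation covered 7 of the 17 sites: Gm34157 held 3, and Gm34004, B930092H01Rik, Gm34264 and Gm34424 held 1 each. Another 9 lay outside every annotated gene. The matching shares over the whole Tbx4 list are not given here, so these counts only describe the place of the sites. The lists do not say on which gene a site acts.

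The peak caller numbers its peaks along each chromosome, and the list keeps those numbers. The 17 Tbx4 sites at Tle3 carried numbers within a run of 21, so 4 numbered peaks of that run are not in the list. Between neighbouring sites the number rose by exactly 1 in 14 of 16 steps, or 87.5%, compared with 41.8% of the 4759 steps in the whole list. Such steps are frequent where most of the numbered peaks of a stretch are listed. The highest number in the whole list is 45103, and the listed sites amount to 10.6% of that. Tle3 was chosen with its count of listed sites known, so its share of such steps is no independent measure. What lies behind the share was not tested. The labels do not say how the listed sites were selected from the numbered peaks.

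The count at Tle3, which was known when the gene was chosen, was high also among genes with long domains. A count of 17 or more Tbx4 sites was reached by 8 genes, Tle3 among them, 0.0366% of protein-coding genes, and 4 genes had more than 17, the highest having 26. All 8 were among the 2005 genes with domains of 500 kb and over, of which 53.1% had a Tbx4 site, with a median of 1 and a 90th percentile of 5. The 2 Hoxc10 sites each at Tle3 and Tle4 were less unusual, since 2.17% of all genes and 15.2% of those with long domains had 2 or more. The domains of Tle4 (1678 kb) and Tle1 (1093 kb) were longer than that of Tle3 and held 2 and 1 Tbx4 sites. Per Mb of domain, Tle3 had 16.5 Tbx4 sites, Tle4 1.19 and Tle1 0.915.

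**Figure D3:**
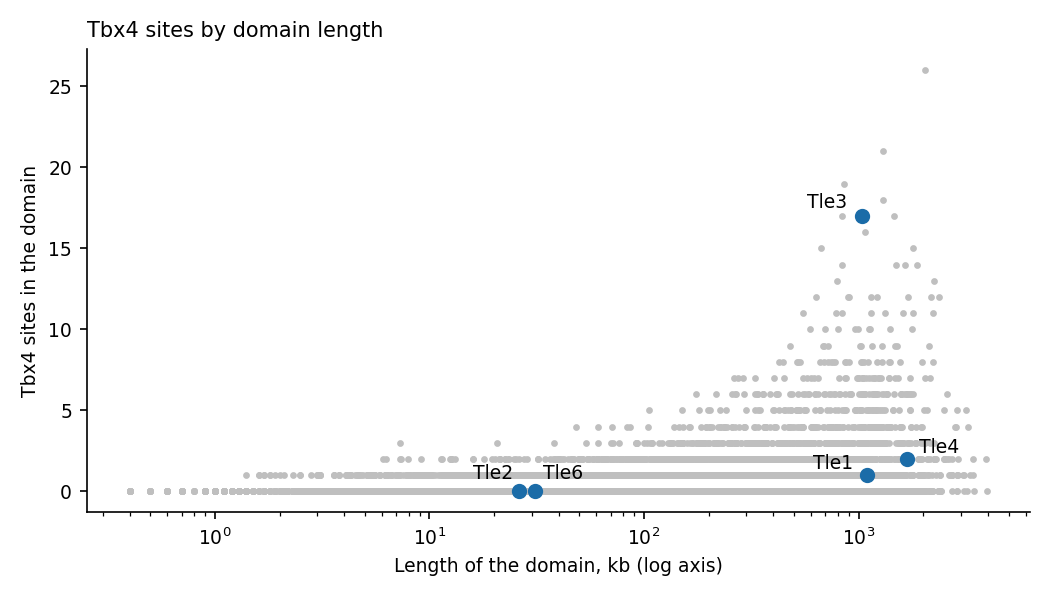
Number of Tbx4 sites in the domain of each protein-coding gene (grey) against the length of the domain in kb on a log axis, with the 5 Tle genes in blue. Tle3, with 17 sites, lies far above Tle1 and Tle4, whose domains are longer, and Tle2 and Tle6 lie at 0 among the genes with short domains.

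The flanks of Tle3 belong to its neighbours as well. The 12 upstream Tbx4 sites and 1 upstream Hoxc10 site also counted for Uaca, whose own total was 12 and 1, and the 4 downstream Tbx4 sites and 1 Hoxc10 site for Rplp1, with 4 and 1. By the nearest gene alone, 12 of the 17 Tbx4 sites fell to Tle3, 3 to Uaca and 2 to Rplp1, among them the strongest site. With domains limited to 100 kb on each side Tle3 kept 8 Tbx4 sites and 1 Hoxc10 site. Within 5 kb of the gene or inside it, 4 and 1 were left.

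At Tle4 a single strong pair stood out. Tle4 lies on chromosome 19 from 14448072 to 14598183 and runs leftward, so that higher coordinates are upstream. A Tbx4 summit at 14890884 and a Hoxc10 summit at 14890805 were 79 bp apart, 292.7 kb upstream of the gene and outside every annotated gene. The Tbx4 score was 31.67, which 2.36% of its list reached, and the Hoxc10 score 28.55, which 5.33% of its list reached. Of the 3 co-bound pairs at the Tle genes this was the only one in the upper 10% of both lists. Tle4 was the nearest protein-coding gene.

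The other sites at Tle4 were weak and far away. A Tbx4 summit at 15217721, 619.5 kb upstream, scored 1.63, near the lowest value of the list. A Hoxc10 summit at 15340951, 742.8 kb upstream, scored 5.05, with 76.8% of its list at or above. It stood 604 bp before the start of the noncoding gene Gm46645, and Psat1, the gene of an enzyme of serine synthesis, was the nearest protein-coding gene. The stretch between Tle4 and Psat1 is longer than 1 Mb. Beyond the limit of the domain, a further co-bound pair of 5.3 (Tbx4, at 15827810) and 5.05 (Hoxc10, at 15827833) lay 23 bp apart and 1230 kb from Tle4. Psat1, which reaches from 15905123 to 15925059, was much nearer to this pair and counted it in its own domain. No site lay inside Tle4 or between it and the next gene downstream, Olfr1505, an odorant receptor gene, although that side of the domain spanned 528.1 kb.

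Tle1 had a long domain with almost no sites. The gene lies on chromosome 4 from 72109945 to 72200989, runs leftward, and had a domain from Gm11232 to Aldoart1. Its only site was a Tbx4 summit at 71835804, 274.1 kb beyond the 3′ end, with a score of 2.94, which 77.8% of the list reached. Gm11232 was nearer to it. The next sites on either side of the domain were co-bound pairs. Beyond Aldoart1, 745.6 kb from Tle1, the pair scored 9.15 for Tbx4 and 8.43 for Hoxc10, and beyond Gm11232, 978.4 kb from Tle1, it scored 9.15 and 9.91. Among genes with domains of 500 kb and over, 46.9% had no Tbx4 site and 65.4% no Hoxc10 site, so a near-empty domain of this length was common.

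Tle2, Tle6 and Tle5 stand next to each other on chromosome 10 and had no site of either factor. Tle2 runs rightward from 81574739 to 81592581, and its end overlaps that of Tle6, from 81590904 to 81601185, which runs leftward. Tle5 lies from 81559444 to 81566371 on the other side of Tle2, with Gna11 beyond it, and Sirt6, the gene of a deacylase of chromatin, follows Tle6. The nearest Tbx4 site was 208.2 kb from Tle2 and 224.4 kb from Tle6, close to Mfsd12, with a score of 2.94. The nearest Hoxc10 site was 1647681 bp from Tle2. The domains of Tle2 (26.2 kb), Tle6 (30.9 kb) and Tle5 (29.6 kb) were short, and 93.2% of the 8875 genes with domains under 50 kb had no Tbx4 site and 99.2% no Hoxc10 site. Over all lengths, 81% of genes had no site of either factor. A site beyond a neighbouring gene is not counted here, and neither weak binding nor binding removed when the lists were made can be seen.

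**Figure D4:**
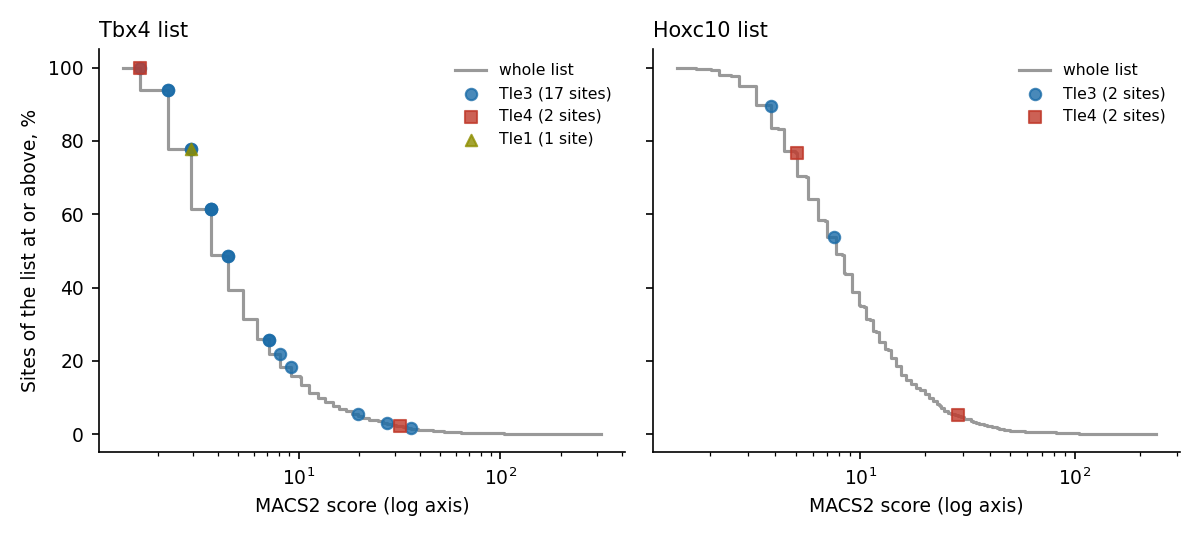
Share of each list at or above a score, in percent, against the score on a log axis, for the Tbx4 list (left) and the Hoxc10 list (right), with the sites of Tle3, Tle4 and Tle1 marked on the curve. The Tbx4 sites of Tle3 run through the whole list, and the co-bound pair of Tle4 lies near the strong end of both lists.

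The co-bound pairs at the Groucho genes differed in score and had their summits close together. Their summits were 87 and 53 bp apart at Tle3 and 79 bp apart at Tle4. All were inside 100 bp, and none of these genes had a pair between 200 and 1000 bp. The distances of all pairs in the lists are not given here, so this is not read as particular to these genes. Of the Tbx4 sites, 2 of 17 at Tle3 and 1 of 2 at Tle4 were paired, where 10.9% of the whole Tbx4 list was. Both Hoxc10 sites at Tle3 were paired, as was 1 of the 2 at Tle4, where 32.1% of the whole Hoxc10 list was. Summits at the same place came from separate libraries, and binding of both factors in the same cells was not measured.

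The genes of factors that recruit Groucho proteins were counted in the same way. Of 39 such genes 28 had at least 1 Tbx4 site (71.8%, against 17.2% of all genes) and 18 had a Hoxc10 site (46.2%, against 6.83%), with 16 having both and 9 neither. Together they held 108 Tbx4 and 46 Hoxc10 sites. The median of their domains was 342.2 kb, compared with 67.3 kb for all genes, and the part that this length plays was not tested. The 3 genes with the most sites began with Tbx18, a T-box repressor gene, with 16 Tbx4 and 9 Hoxc10 sites, and its relative Tbx15, with 15 and 6. Hes1, a Notch-responsive repressor, had 10 and 2. Without a site were Hes2, Hes3, Hes6, Hey1, Heyl, Hhex, Nkx2-2, Tbx20 and Tcf7. None of the 39 reached the 17 Tbx4 sites of Tle3.

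Among the genes of other corepressors, most sites fell to Zfp703, a zinc finger gene. Of 17 such genes 7 had a Tbx4 site (41.2%, against 17.2% of all genes) and 6 a Hoxc10 site (35.3%, against 6.83%), and 10 had neither. Their median domain was 162.6 kb, against 67.3 kb for all genes, and the part of this length was again not tested. Zfp703 held 19 Tbx4 and 21 Hoxc10 sites, of the 34 and 31 of the whole list. Its relative Zfp503 held 2 and 6, and Nrip1, a corepressor of nuclear receptors, 4 and 1. The deacetylase genes Hdac1 and Hdac3, the scaffolds Sin3a and Sin3b, and Ncor1 had none. Both lists of genes were drawn up with earlier results of these data known, and their counts carry no test.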

How the data were processed

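Summits of 2 ChIP-seq samples were used. Per the submitters' processing notes, reads were aligned with Bowtie2 2.2.6 and peaks called with MACS2 2.1.1.20160309 on mm10, and HOMER was also named. The authors deposited 1 bp summits with a score on a −log10 scale; whether of a p-value or a q-value, how summits were selected, the control library and any pooling: not given in the sources used here. Gene positions came from a RefSeq table of GRCm38.p6, in which transcripts, exons and introns are not told apart, and gene direction and promoter windows from RefSeq promoter sequences. No genome sequence was used here, so sequence at other sites is not shown. Domains, counts, ranks within a list and motif matches on both strands were computed with Python 3.11.15 and pandas 2.3.3, after the counting had been tested on simulated sites. The members and gene lists were chosen with earlier results of these data known. Named are the 5 genes, Tle5, the genes bounding their domains and, from each gene list, the 3 genes richest in sites; noncoding genes, other genes near sites and list genes without a site were named after their values were seen. Alternatives changed the domain, the assignment of sites, the score limit and the pairing distance.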

Additional observations from a re-analysis of the deposited data

How the results depend on the processing

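The 20 Tbx4 sites, 4 Hoxc10 sites and 3 co-bound pairs at the 5 genes depended on how far a domain reached. With an extension of at most 100 kb they were 8, 1 and 1, and within 5 kb of a gene or inside it 4, 1 and 1, which by construction drops distant sites. With the nearest gene only they were 14, 2 and 2. Sites at or above the median score of their list gave 13, 1 and 1, and as many of the highest Tbx4 sites as there are Hoxc10 sites gave 8 Tbx4 sites and 2 pairs. Tle3 had the most Tbx4 sites of the 5 genes under each of these settings. A pairing distance of 50 bp left 0 pairs, while 100, 500 and 1000 bp gave 3. With 1 kb added to each gene the values were 20, 4 and 3, and when genes with placeholder names did not end a domain they were 21, 5 and 4, the added pair lying at Tle1. The shares of all genes with a Tbx4 and a Hoxc10 site were 17.2 and 6.83%. They were 14.4 and 4.74% with 100 kb, 13.2 and 5.02% with the nearest gene, 10.8 and 2.64% with 5 kb, 18.3 and 7.31% without placeholder names as bounds, and 11.9 and 4.21% at or above the median score. With the highest Tbx4 sites alone the Tbx4 share was 7.42%. No paired analysis was possible because each factor has 1 sample and no test was made. With no counts in the lists, depth limits what a missing site can show by an unknown amount.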
